A study of Mus musculus with 18 samples.

Results

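The SLAM family receptors were followed through 5 kinds of mouse immune cell and whole brain on Illumina BeadChip arrays, which report messenger RNA as the brightness of bead-bound probes. The members were the receptor genes Slamf1, Slamf6, Slamf7, Slamf9, Ly9, Cd48, Cd84 and Cd244 and the adaptor gene Sh2d1a, and they were taken as every probe that the platform annotation pairs with one of these symbols. Of the 9 listed genes, 8 had such a probe, 19 probes in all, out of 19057 genes with a named probe in the series. Cd244 stands in the annotation under its newer symbol Cd244a. No probe there carries the symbol Sh2d1a, so the adaptor SAP was not analysed here. All 8 measured genes had at least 1 probe detected on at least 3 arrays and were among the 12094 genes tested, with 15 of their 19 probes passing.

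The study profiled expression beside DNA methylation at CpG islands within genes, to compare immune cell types with each other and with brain. The 18 arrays fell into 6 groups of 3 biological replicates: whole brain, dendritic cells (DC, antigen-presenting cells), B cells (the antibody lineage), Th1 and Th2 cells (helper T cells known for interferon gamma and for interleukin 4) and naive CD4 T cells (helper cells before antigen contact). All samples were labelled C57/BL6, and the immune samples also as wild type (wt). Brain came from males, and each immune sample is labelled as of both sexes. The labels give neither ages nor how cells were sorted or polarized, and whether animals were pooled is not given in the sources used here.

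SLAM family receptors are immunoglobulin-type surface proteins of blood cells. Most of them bind a copy of themselves on the neighbouring cell, while CD244 binds CD48. Their cytoplasmic tyrosine motifs recruit small SH2 adaptors: SAP, which brings in the kinase Fyn, and EAT-2, the product of Sh2d1b1. In their absence the same motifs can engage phosphatases. In lymphoid tissue the family is known for its part in NK cell killing, in the development of innate-like T cells and in lasting contacts between T and B cells.

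Throughout, a level is the background-corrected, quantile-normalized probe signal on the log2 scale, and a difference is one mean level minus another. A probe counted as detected on an array at a detection p under 0.01. A gene was called at a Benjamini-Hochberg adjusted limma p under 0.05, over all genes tested, together with an absolute log2 difference of at least 1. Where a probe was detected on no array of one group, the fold is given as a lower bound ("at least"), set against the lowest signal called detected there. Levels of different genes come from different probes and were not compared with each other.

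Probes detected per array numbered 12564 to 16259 on the immune arrays and 20377 to 20497 on the brain arrays. Marker lists were set against the labels. All 7 tested dendritic cell markers were detected on all 3 DC arrays, all 4 B cell markers on all 3 B cell arrays, 6 of 7 T cell markers on all 3 arrays of each T cell group and all 3 neuron markers on all brain arrays. The exception in the T cell groups was Cd5, undetected on the Th2 arrays and on 1 array each of the Th1 and naive groups. Of the dendritic cell markers, Itgax, Xcr1, Clec9a and Cd209a were undetected in every other group. Ccr7 was higher in B (8.72) and naive cells (8.89) than in dendritic cells (7.49). Batf3 stood at 9.75 in Th1 and 9.68 in dendritic cells, and Zbtb46 was also detected on all Th1 and brain arrays. The DC arrays also carried markers of other cells, with 6 of 6 granulocyte, 4 of 4 monocyte, 5 of 5 NK cell, 3 of 4 B cell and 6 of 7 T cell markers detected on every one of them. Every B cell array detected 5 of 7 T cell, 2 of 4 monocyte and 1 of 6 granulocyte markers. Their summed T cell marker level was 436 to 902, against 21100 to 34300 in the T cell groups. The B cell marker Cd79b was detected on all 3 naive arrays, at a mean of 6.64 against 13.20 in B cells. On these arrays the median level of the listed stress genes was log2 11.57, against 6.65 to 9.45 in the other groups. Background signal was 46.6 to 54.9 on the DC and B cell arrays, against 34.4 to 39.0 on the others, which cannot be told apart from the groups. With 3 arrays a group, precision is limited by their number.

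In the RefSeq gene table (GRCm38.p6), 7 members lie next to each other on chromosome 1 in the order Cd244, Ly9, Slamf7, Cd48, Slamf1, Cd84 and Slamf6, with Tma7-ps, which the table lists as protein-coding, between Cd48 and Slamf1. Slamf9 follows on the same chromosome after 14 genes listed as coding, and Sh2d1a is on chromosome X. RefSeq promoter windows of 300 bases (250 before and 50 after the gene start) were at hand for 7 of the 9 members. Those of Slamf1 and Slamf7, whose probes rose together in Th1 and Th2 cells, and of Slamf9 and Cd244, whose probes were high in dendritic cells, are printed 5′ to 3′ on the gene's strand. Capitals mark matches, on either strand, to any of 5 motifs. The T-box motif was searched as GGTGTGA and occurred in 3.98% of the 32851 RefSeq windows of this length. The motif of GATA factors, AGATAA, was present in 11.2% of those windows. For AP-1 the letters were TGANTCA, found in 7.81% of windows. The STAT motif was written TTCNNNGAA and occurred in 8.3% of windows. For ETS factors the search used AGGAAGT, present in 9.35% of windows.
Slamf1, chr1:171766882-171767181, plus strand: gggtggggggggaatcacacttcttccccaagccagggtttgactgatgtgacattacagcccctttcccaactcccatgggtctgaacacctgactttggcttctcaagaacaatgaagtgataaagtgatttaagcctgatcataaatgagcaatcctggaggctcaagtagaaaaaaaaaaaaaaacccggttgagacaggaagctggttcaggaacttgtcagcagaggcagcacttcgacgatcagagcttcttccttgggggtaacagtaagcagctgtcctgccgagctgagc
Slamf7, chr1:171648950-171649249, minus strand: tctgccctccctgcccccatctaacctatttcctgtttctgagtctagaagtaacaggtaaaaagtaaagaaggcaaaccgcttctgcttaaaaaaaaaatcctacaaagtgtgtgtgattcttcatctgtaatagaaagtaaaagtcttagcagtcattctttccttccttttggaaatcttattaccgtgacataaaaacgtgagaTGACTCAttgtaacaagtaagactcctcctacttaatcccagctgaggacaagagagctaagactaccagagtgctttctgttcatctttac
Slamf9, chr1:172475110-172475409, plus strand: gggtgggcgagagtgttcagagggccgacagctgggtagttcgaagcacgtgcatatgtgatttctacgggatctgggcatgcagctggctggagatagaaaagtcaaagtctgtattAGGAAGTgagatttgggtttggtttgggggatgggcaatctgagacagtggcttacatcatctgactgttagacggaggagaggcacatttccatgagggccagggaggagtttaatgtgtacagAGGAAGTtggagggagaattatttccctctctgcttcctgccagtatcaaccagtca
Cd244, chr1:171558943-171559242, plus strand: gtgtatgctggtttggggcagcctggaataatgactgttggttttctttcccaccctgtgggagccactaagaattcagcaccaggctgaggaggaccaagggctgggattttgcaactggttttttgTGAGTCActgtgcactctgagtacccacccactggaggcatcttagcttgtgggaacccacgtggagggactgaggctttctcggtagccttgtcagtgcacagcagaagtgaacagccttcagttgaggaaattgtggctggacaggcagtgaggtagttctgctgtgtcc
The Slamf1 window held none of the 5 motifs, and those of Slamf7 and Cd244 held 1 AP-1 match each. Slamf9 held 2 ETS matches. CpG dinucleotides, the sites of DNA methylation, numbered 4 for Slamf1, 3 for Slamf7, 6 for Slamf9 and 2 for Cd244. They numbered 1 to 7 over the 7 members, against a median of 7 and a 25th percentile of 3 over all windows. A match is a run of letters and shows no binding.

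The receptors fell into different patterns over the groups, as the plot of every array's level shows. Slamf1 was highest in Th1 and Th2 cells, Slamf7 in Th1 and dendritic cells, Slamf9 in dendritic and B cells and Cd244 in dendritic cells, whereas Ly9 and Cd84 were high in all 5 immune groups. In brain, only the probes of Slamf9 and Cd84 were detected at all. A bulk sample cannot tell fewer expressing cells from less RNA per cell, and this holds for every difference that follows.

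**Figure D1:**
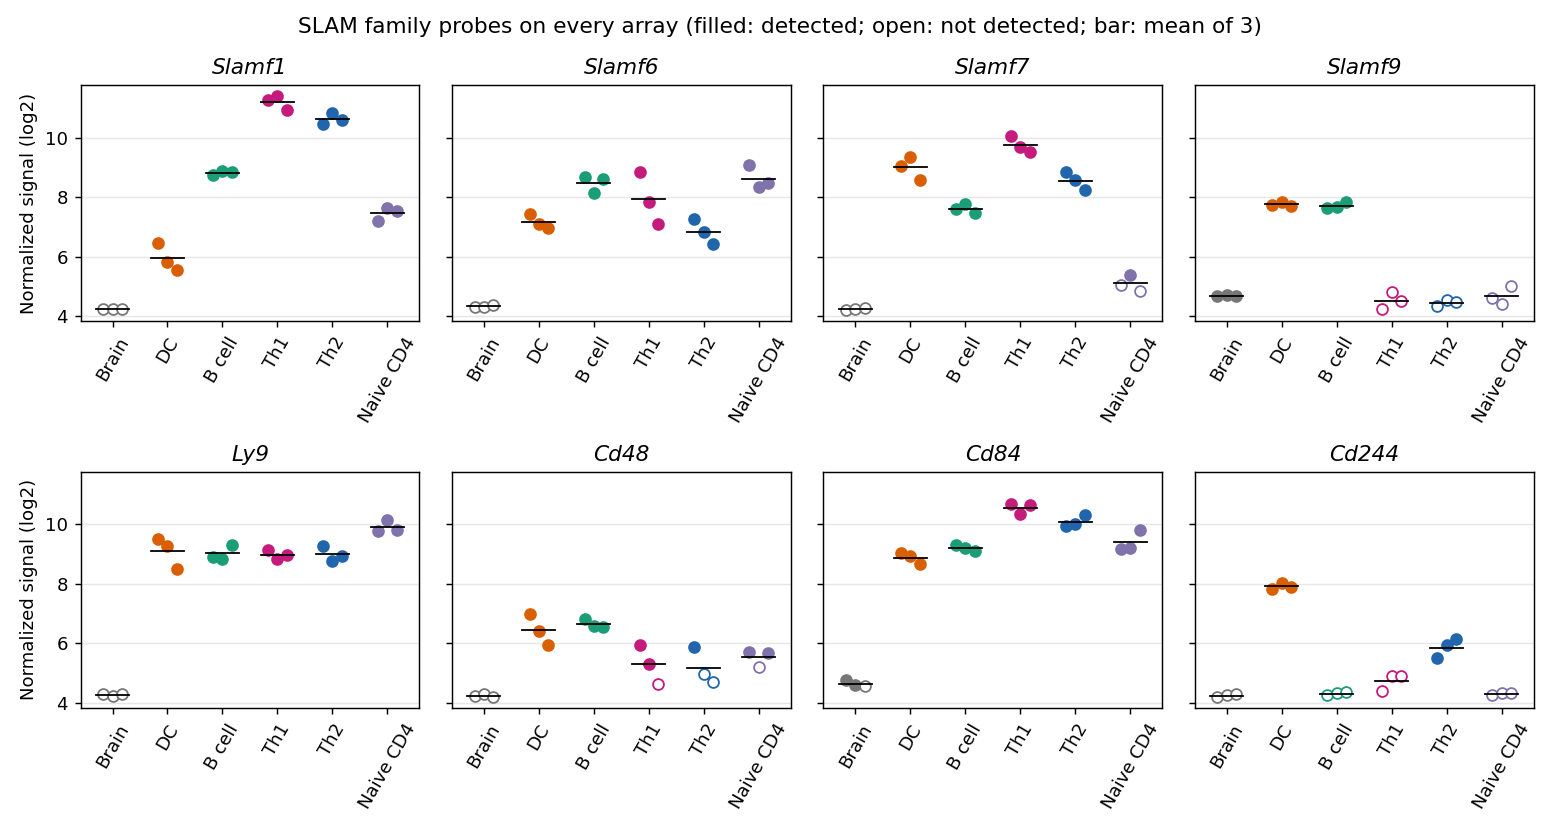
Normalized log2 signal of the probe standing for each of 8 SLAM family genes on each of 18 arrays, in groups of 3; filled circles are arrays on which the probe was detected, open circles arrays on which it was not, and bars are group means. Slamf1 sits at 10.46 or above on the Th1 and Th2 arrays and at 8.87 or below elsewhere, and Cd244 is detected on the DC and Th2 arrays only.

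Slamf1 (CD150), a self-binding receptor that works through SAP in T cells, stood at log2 11.28, 11.41 and 10.92 in Th1 cells. In Th2 cells it stood at 10.46, 10.83 and 10.58, and in naive CD4 T cells at 7.20, 7.62 and 7.54. Every Th1 and Th2 array was above every naive array. The deposited, unnormalized signals showed the same gap, at 1230 to 2640 in Th1 cells and 840 to 1100 in Th2 cells, against 141 to 160 in naive cells. Slamf1 rose by log2 3.75 ± 0.19 in Th1 cells (SE; limma adjusted p = 7.23e-11) and by 3.17 ± 0.19 in Th2 cells (adjusted p = 5.91e-10). Its other 2 probes rose too, by 3.59 and 2.63 in Th1 cells and by 2.82 and 2.06 in Th2 cells. Between Th1 and Th2 cells it was not called, at 0.58 (95% interval 0.17 to 0.99; adjusted p = 0.057).

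B cells and dendritic cells stood on opposite sides of naive T cells for Slamf1. B cells had 8.75, 8.87 and 8.85, which was 1.37 ± 0.19 above naive cells (adjusted p = 2.34e-05). The DC arrays had 6.47, 5.82 and 5.56, which differed from naive cells by -1.50 ± 0.19 (adjusted p = 5.15e-06). No DC array reached any naive array, and no B cell array fell to one. Slamf1 therefore had a separated order of Th2 over B cells (1.80), B cells over naive cells and naive cells over dendritic cells, and Th1 over Th2 was the only step between neighbours that was not called. Dendritic cells differed from Th1 cells by -5.25 ± 0.19, the largest immune difference of any member. The second Slamf1 probe was not called between B and naive cells (0.76) but kept each of the other directions named here. The third was detected on Th1 and Th2 arrays alone and was not called between B, naive and dendritic cells.

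Slamf7 (CRACC), a self-binding receptor that signals through EAT-2 in NK cells, was nearly dark in naive cells, undetected in brain and bright in the other 4 groups. Its levels were 10.04, 9.69 and 9.53 in Th1 cells, 8.83, 8.58 and 8.24 in Th2 cells, and 5.05, 5.39 and 4.84 in naive cells, where 1 of 3 arrays detected it. It rose by 4.66 ± 0.20 in Th1 cells (adjusted p = 7.67e-12) and by 3.45 ± 0.20 in Th2 cells (adjusted p = 3.21e-10). No other member changed as much between T cell groups. Slamf7 was also higher in Th1 than in Th2 cells, by 1.20 ± 0.20 (adjusted p = 0.000461), with all Th1 arrays above all Th2 arrays. Its second probe gave 0.88 there (adjusted p = 0.000488), which is short of a 2-fold difference.

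Dendritic cells had Slamf7 at 9.06, 9.36 and 8.59, and B cells had it at 7.59, 7.78 and 7.47. Both were above naive cells, by 3.91 ± 0.20 in dendritic cells (adjusted p = 4.77e-11) and by 2.52 ± 0.20 in B cells (adjusted p = 2.48e-08). Dendritic cells were above B cells by 1.39 (adjusted p = 2.77e-05). In the order of levels Th1, dendritic, Th2, B and naive cells, only the last step was called. The Th1 lead over dendritic cells was 0.75 and rested on the brighter probe, since the second probe put dendritic cells above Th1 cells by 0.10 (adjusted p = 0.624).

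**Figure D2:**
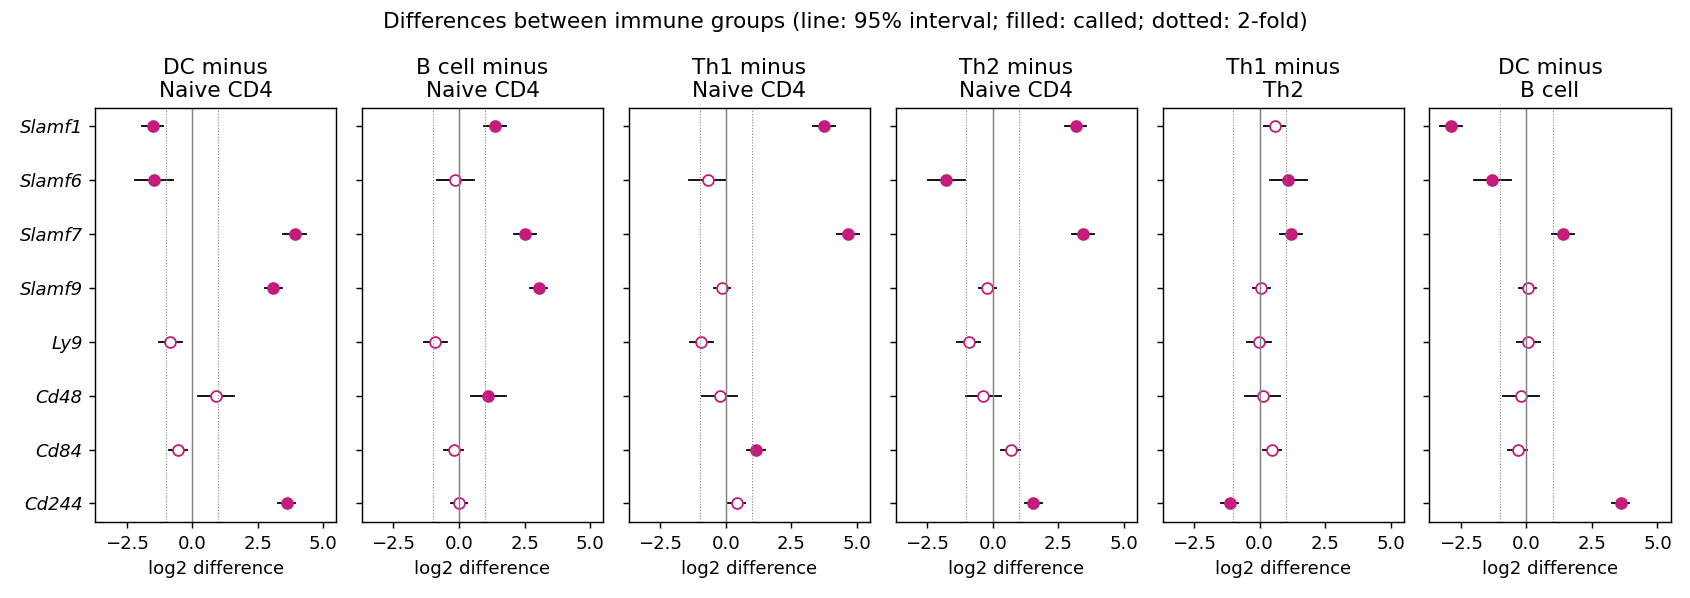
log2 differences of 8 SLAM family genes in 6 comparisons of immune groups, as points with 95% intervals from the limma fit; filled points were called, open points were not, and dotted lines mark a 2-fold difference. Slamf1 and Slamf7 lie far to the right in both Th1 and Th2 against naive cells, and Slamf9 and Cd244 in dendritic against naive cells.

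Slamf6 (Ly108), another self-binding receptor with SAP as its partner in T cells, was lower in Th2 than in naive cells. It stood at 7.27, 6.84 and 6.41 in Th2 cells, against 9.07, 8.33 and 8.46 in naive cells, with no overlap. The difference was -1.78 ± 0.33 (adjusted p = 0.000227). Th1 cells, at 8.86, 7.84 and 7.10, were widely spread and overlapped with the naive arrays and with the Th2 arrays. Their difference from naive cells was -0.69 (95% interval -1.39 to 0.02; adjusted p = 0.0965). Slamf6 was called higher in Th1 than in Th2 cells, at 1.09 ± 0.33 (adjusted p = 0.0378). That call was lost without background correction (0.95), with an offset of 50 (0.92), with the authors' scaled signal (0.90), with all probes kept (adjusted p = 0.0682) and when only these arrays were fitted (adjusted p = 0.289). It was also lost without Th1 replicate 1 (0.63) or 2 (1.14), without Th2 replicate 2 (1.09) or 3 (0.88) and without any 1 of the brain arrays (adjusted p = 0.0519 to 0.0526). With the replicate number as a block the call was kept. Replicate 1 was the highest of its group on the Th1, Th2 and naive arrays alike.

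Dendritic cells had Slamf6 at 7.42, 7.11 and 6.97, lower than naive cells by a difference of -1.45 ± 0.33 (adjusted p = 0.00149). B cells, at 8.66, 8.14 and 8.62, overlapped with naive cells and differed from them by -0.15 (95% interval -0.85 to 0.56). Of the 3 Slamf6 probes only this one was widely detected. Of the others, 1 was detected on no array and 1 on a single Th1 array, so each direction for Slamf6 rests on 1 probe. No neighbours in its order of levels differed beyond the threshold.

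Ly9 (CD229), a self-binding receptor of T and B cells, had the flattest profile. Dendritic cells stood at 8.49 to 9.50, B cells at 8.85 to 9.30, Th1 cells at 8.85 to 9.13 and Th2 cells at 8.78 to 9.28, against 9.79 to 10.16 in naive cells. Every naive array was above every other immune array. The differences from naive cells were -0.82 in dendritic cells, -0.90 in B cells, -0.94 in Th1 cells and -0.91 in Th2 cells, each ± 0.21 and each with an adjusted p of 0.00117 to 0.00353. None reached a 2-fold difference, so Ly9 was not called. With the authors' scaled signal it passed that limit in Th1 (-1.07) and Th2 cells (-1.08). Leaving out a single array also took it past the limit, in Th1 cells without replicate 1 (-1.01), in Th2 cells without replicate 1 (-1.05), in B cells without replicate 3 (-1.04) and in dendritic cells without replicate 1 (-1.03). The brighter of its other probes gave -0.17 to -0.46 in the same 4 comparisons, with adjusted p from 0.233 to 0.698. The dimmest probe was called in dendritic cells alone, at -1.23 (adjusted p = 0.00299).

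Cd84, also self-binding and a partner of SAP in T and B cell contacts, gave probes that disagreed. The brightest probe, which stood for the gene, was at 10.68, 10.36 and 10.64 in Th1 cells, against 9.16, 9.22 and 9.82 in naive cells, and was called at 1.16 ± 0.17 (adjusted p = 1.38e-05). The other 2 probes pointed down in the same comparison, by -0.75 (adjusted p = 0.0305) and -0.72 (adjusted p = 0.158), and neither was called. In Th2 cells the brightest probe gave 0.69 and the others -0.98 and -0.69. No direction for Cd84 in Th1 or Th2 against naive cells therefore holds over all its probes. In dendritic cells all 3 pointed the same way, with -0.54 for the brightest, which was not called, and -1.79 and -1.68 for the others, which were. Against naive cells, B cells gave -0.20, -1.07 and -0.59, of which the second was called. B cells against Th1 cells gave -1.36 for the brightest probe, which was called, and -0.33 and 0.13 for the others, which were not.

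**Figure D3:**
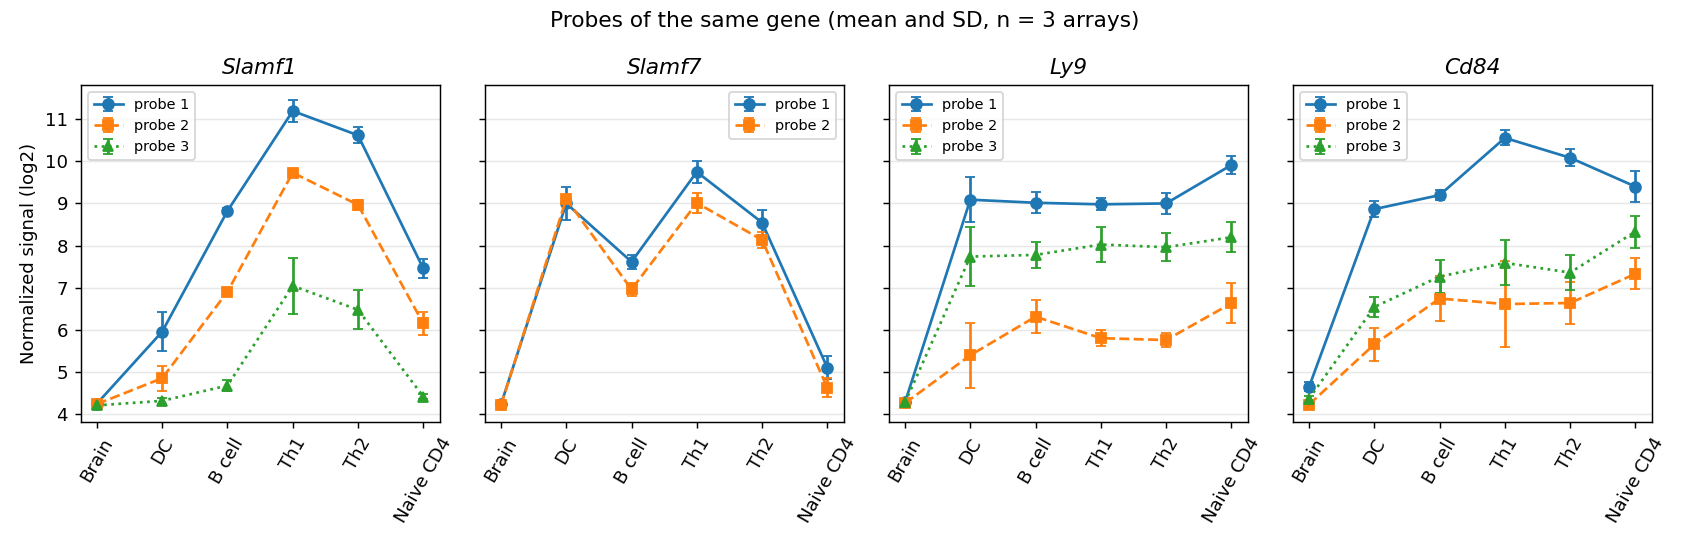
Mean normalized log2 signal of each passing probe of Slamf1, Slamf7, Ly9 and Cd84 in 6 groups, with error bars of 1 SD over 3 arrays. The Slamf1 probes are all higher in Th1 and Th2 than in naive cells, while the brightest Cd84 probe is higher in Th1 than in naive cells and the other 2 Cd84 probes are lower.

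Cd48 and Cd244 are a ligand and its receptor. Both had a probe detected on all DC arrays, whereas the B cell arrays detected only Cd48 of the pair. Cd48, a glycolipid-anchored protein found on most leukocytes, was dim here. It was detected on all DC and B cell arrays, on 2 of 3 Th1, 1 of 3 Th2 and 2 of 3 naive arrays. Its levels were 6.97, 6.43 and 5.94 in dendritic cells, 6.81, 6.59 and 6.54 in B cells and 5.72, 5.21 and 5.66 in naive cells, and 4.64 to 5.93 in Th1 and 4.71 to 5.87 in Th2 cells. B cells were above naive cells by 1.12 ± 0.32 (adjusted p = 0.0114), and dendritic cells were not called, at 0.92 (adjusted p = 0.024). B cells were also above Th1 (1.35) and Th2 cells (1.47), and dendritic cells above Th1 (1.15) and Th2 cells (1.27). All 5 of these Cd48 calls fell under a 2-fold difference without background correction, with an offset of 50 and with the authors' scaled signal, where they ranged from 0.69 to 0.97. The B cell call against naive cells was also lost without naive replicate 2 (0.96), and the DC call against Th1 cells without Th1 replicate 3 (0.82) or DC replicate 1 (0.89). Median scaling took the DC difference from naive cells past the limit (1.19), as did leaving out naive replicate 1 (1.01) or DC replicate 3 (1.17). It took the B cell difference from Th1 (0.95) and Th2 cells (0.86) and the DC difference from Th2 cells (0.92) under it.

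Cd244 (2B4), an NK cell receptor for CD48, was bright in dendritic cells alone. It stood at 7.84, 8.02 and 7.88 there, against B cells at 4.25 to 4.36, Th1 cells at 4.38 to 4.90 and naive cells at 4.26 to 4.33, none of which detected it. The DC level was at least 6.53-fold above naive cells (adjusted p = 4.3e-12), at least 7.003-fold above B cells and at least 5.68-fold above Th1 cells. Its other 2 probes were dim, detected on no array and on 2 DC arrays. Only the DC and Th2 arrays brought Cd244 through the detection filter, so those groups had to stand above the rest.

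NK cell markers were highest on the DC arrays, where Cd244 was brightest. All 5 tested markers were detected on all 3 DC arrays, where their summed linear level was 3740 to 5180. The sum was 101 to 107 in brain, 151 to 211 in B, 422 to 750 in Th1, 146 to 170 in Th2 and 509 to 597 in naive cells, and Klrb1c and Klra8 were undetected on all arrays outside the DC group. Outside that group only Klrd1 was detected on all arrays of a group. Its mean log2 levels were 8.93 in naive, 8.74 in Th1, 6.39 in B and 6.23 in Th2 cells. Ncr1, a defining NK cell receptor, did not pass the detection filter. Granulocyte markers were also highest on the DC arrays, with a summed level of 36300 to 49800 on the DC arrays and 114 to 392 elsewhere, and so were the monocyte markers, with 7490 to 10600 against 80.0 to 396. The part of these cells in the DC levels of Cd244, Slamf7 and Slamf9 was not tested.

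**Figure D4:**
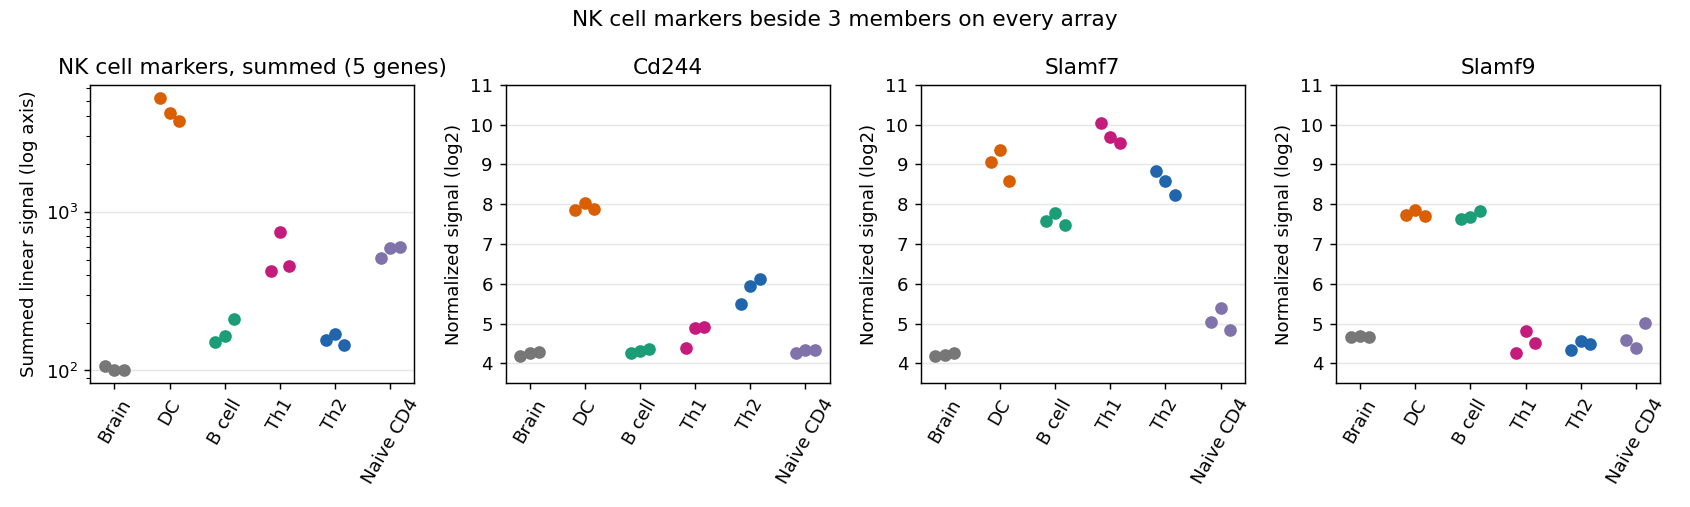
Summed linear signal of 5 NK cell markers (log axis) and normalized log2 signal of Cd244, Slamf7 and Slamf9 on each of 18 arrays by group. The DC arrays carry the highest marker sum (3740 to 5180) and the highest Cd244 level, while Slamf7 is highest on Th1 arrays and Slamf9 is as high on B cell as on DC arrays.

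Th2 cells were the other group with detected Cd244, at 5.49, 5.94 and 6.13, against 4.38, 4.89 and 4.90 in Th1 cells. Th2 cells were at least 1.56-fold above naive cells (adjusted p = 2.13e-07), and Th1 cells were at least 1.36-fold below Th2 cells (adjusted p = 6.15e-05). Dendritic cells exceeded Th2 cells by 2.06 ± 0.15. The NK cell markers were low in Th2 cells, where 4 of 5 were undetected. The Th2 signal was weak: as deposited it was 48.8 to 51.1, against 40.4 to 45.5 in Th1 cells and 36.5 to 38.4 in naive cells. Undetected B cell arrays had 51.7 to 54.2 over their higher background. Both Th2 calls fell under a 2-fold difference without background correction (0.91 against naive cells and -0.64 for Th1 against Th2), with an offset of 50 (0.78 and -0.60) and with the authors' scaled signal (0.64 and -0.51). The Th1 against Th2 call was also lost with median scaling (-0.77), without Th1 replicate 1 (-0.96) and without Th2 replicate 3 (-0.99).

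Slamf9, a receptor whose short tail lacks the SAP-binding motifs, split the antigen-presenting cells from the T cells. It stood at 7.73, 7.85 and 7.70 in dendritic cells and at 7.62, 7.67 and 7.83 in B cells. On all 9 T cell arrays it was undetected, at 4.25 to 5.004. Dendritic cells were at least 5.85-fold above naive cells (adjusted p = 2.6e-11) and B cells at least 5.65-fold (adjusted p = 5.86e-11). Against Th1 and Th2 cells the bounds were at least 4.92-fold to 5.13-fold. Dendritic and B cells overlapped and differed by 0.05 (95% interval -0.27 to 0.37). As no T cell array detected Slamf9, other groups alone brought it through the filter. B cell markers were present on the DC arrays, with a summed level of 1750 to 3670 against 14300 to 15600 on the B cell arrays. Cd79b, Ms4a1 and Blk were detected on every DC array and Pax5 on none. Pax5 was dim on the B cell arrays as well, so its absence from the DC arrays does not decide whether B cells were present. The part of B cells in the DC level of Slamf9 was not tested.

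Brain had lower levels of all 8 receptors than the mean of the immune groups. Slamf1 was at least 18.8-fold lower in brain (adjusted p = 1.41e-14), Slamf6 at least 9.37-fold, Slamf7 at least 10.7-fold and Ly9 at least 24.6-fold lower. Cd84, detected on 2 of 3 brain arrays at 4.56 to 4.77, differed by -4.98 ± 0.13 (adjusted p = 5.4e-16). Cd48 was at least 2.37-fold and Cd244 at least 1.80-fold lower. All 8 were called, beside 52.3% of all genes tested in either direction. As 6 of the 8 were detected on no brain array, the immune arrays alone brought them through the filter and they had to be lower in brain, so this count is a description only. With an offset of 50 only 5 were called, since Cd48 (-0.82), Cd244 (-0.68) and Slamf9 (-0.79) fell under a 2-fold difference.

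Slamf9 in brain depended on the scale. Its deposited signal was 59.1 to 65.9 on the brain arrays, against 37.3 to 45.8 on the T cell arrays, and the probe was detected on all 3 brain arrays. After normalization brain stood at 4.67 to 4.70, within the range of the undetected T cell arrays. The call against the immune mean (-1.14 ± 0.12) overlapped with single immune arrays and was lost without background correction (-0.79) and with the authors' scaled signal (-0.95). Microglia markers were detected on all brain arrays (4 of 4, with a summed level of 335 to 606, against 95.7 to 250 in the immune groups). Tmem119 and P2ry12 were undetected in every immune group. Sall1 was higher in Th1 (6.04) and Th2 cells (6.06) than in brain (5.29), and Fcrls was also detected on all Th2 arrays. The part of microglia in the Slamf9 signal was not tested.

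Between immune groups, 3 of 8 members were called in each of Th1 against naive cells and Th1 against Th2 cells. All 3 (Slamf1, Slamf7 and Cd84) were higher in Th1 than in naive cells, where 28.4% of all genes were called, with Cd84 counted by its brightest probe and against its other 2. In Th1 against Th2 cells 2 were higher (Slamf6 and Slamf7) and 1 lower (Cd244), against 4.50% of all genes. In Th2 against naive cells 4 were called, 3 higher (Slamf1, Slamf7 and Cd244) and 1 lower (Slamf6), against 27.0% of all genes. The Th1 and Th2 comparisons with naive cells share the naive arrays.

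The members called in B cells against naive cells numbered 4, all higher (Slamf1, Slamf7, Slamf9 and Cd48), against 14.2% of all genes. In dendritic cells against naive cells 5 were called, 3 higher (Slamf7, Slamf9 and Cd244) and 2 lower (Slamf1 and Slamf6), against 23.0% of all genes. Dendritic cells against B cells gave 4, of which Slamf7 and Cd244 were higher and Slamf1 and Slamf6 lower, against 14.7% of all genes. B cells against Th1 cells gave 5, with Slamf9 and Cd48 higher and Slamf1, Slamf7 and Cd84 lower, against 28.8% of all genes. Against Th2 cells they gave 5, with Slamf6, Slamf9 and Cd48 higher and Slamf1 and Cd244 lower, against 28.0%. Dendritic cells had 5 called against Th1 cells and 5 against Th2 cells, with Slamf9, Cd48 and Cd244 higher and Slamf1 and Cd84 lower in both, against 29.0% and 29.1% of all genes. The members' median difference was 0.13 for Th1, 0.24 for Th2, 0.56 for B cells and 0.19 for dendritic cells, each against naive cells, where the median of all genes lay between -0.05 and -0.01. With undetected probes at their bounds the Th2 median was 0.21 and the other 3 were the same. Slamf9 and Cd244 passed the filter only through the groups where they were detected, so these counts do not speak for the family as a whole.

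The gene of the adaptor EAT-2 was detected in dendritic cells alone, and these arrays alone brought it through the filter. Sh2d1b1 stood at 7.57 in dendritic cells and was undetected in every other group, at 4.17 to 4.23. It was at least 5.13-fold above naive cells (adjusted p = 8.86e-15) and at least 5.50-fold above B cells (adjusted p = 1.32e-14). The NK cell marker sum of 3740 to 5180 on the same arrays stands beside it, and its part was not tested. The second EAT-2 gene, Sh2d1b2, did not pass the filter. Fyn, the kinase that SAP recruits, was at 9.83 in Th1, 9.42 in Th2 and 9.01 in naive cells, and was not called between them. It was lower in dendritic cells (7.78, a difference from naive cells of -1.23 ± 0.21; adjusted p = 0.000115) and lower again in B cells (6.62, a difference of -2.38 ± 0.21; adjusted p = 9.76e-08).

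Of 26 listed adaptors and signalling genes 20 were tested. In Th1 cells 2 were higher and 7 lower than in naive cells, and the same counts held for Th2 cells, so that 45% of the list was called in each case, against 28.4% of all genes for Th1 and 27.0% for Th2 cells. Plcg2, the phospholipase that SLAM receptors can engage, was higher, by 3.11 ± 0.20 in Th1 (adjusted p = 1.1e-09) and 2.23 ± 0.20 in Th2 cells (adjusted p = 6.86e-08). Dok1, an inhibitory adaptor, was the other higher gene, by 1.78 ± 0.29 in Th1 and 1.16 ± 0.29 in Th2 cells. The lower genes included the phosphatase gene Inpp5d (SHIP-1, -2.04 ± 0.21 in Th1 cells), the kinase gene Csk, which restrains Src-family kinases (-1.89 in Th1 and -1.81 in Th2 cells), and the phosphatase gene Ptpn6 (SHP-1, -1.86 ± 0.13 in Th2 cells). Uvrag, an autophagy and trafficking gene, was lower in Th1 cells (-2.02 ± 0.22) and Prkcq, a T cell protein kinase C, in Th2 cells (-1.78 ± 0.12). Ptpn6 and Prkcq were also called lower in Th1 cells, at -1.85 and -1.65. Mean levels of Uvrag and Inpp5d were below naive cells in Th2 cells too, at 7.61 against 9.39 and 6.53 against 7.75. Between Th1 and Th2 cells 1 of 20 was called, which is near the 4.50% of all genes: the adaptor gene Dok2, at -1.24 ± 0.20 (adjusted p = 0.000413).

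In B cells 3 of the 20 genes were higher and 4 lower than in naive cells, where 14.2% of all genes were called. Plcg2 was higher by 6.47 ± 0.20 (adjusted p = 2.31e-13), while Prkcq was at least 20.3-fold lower and Lat, the linker of the T cell receptor, and Dok2 differed by -4.92 ± 0.24 and -4.02 ± 0.20. Dendritic cells had 6 higher and 3 lower (23.0% of all genes), with Plcg2 at 6.14 ± 0.20, Sh2d1b1 as above, Prkcq at -3.39 ± 0.12 and Lat at -3.01 ± 0.24. Against B cells 8 of the 20 were higher in dendritic cells and the other 12 were not called (14.7% of all genes). The higher genes were led by Sh2d1b1, Dok2 (3.26 ± 0.20), Lat (1.91 ± 0.24) and Prkcq (at least 1.94-fold). Sh2d1b1, Fgr and Itgam were detected on the DC arrays alone, so the filter fixed their direction in every DC comparison. The counts of genes higher in dendritic cells than in naive and B cells include all of them. T cell markers, which include Lat, were detected on the DC arrays at a summed level of 2210 to 3080, against 436 to 902 on the B cell arrays. Against Th1 cells the list had 7 higher and 5 lower in B cells (28.8% of all genes) and 9 higher and 3 lower in dendritic cells (29.0%). Against Th2 cells it had 5 higher and 4 lower in B cells (28.0% of all genes) and 7 higher and 4 lower in dendritic cells (29.1%). In brain 2 were higher and 12 lower (52.3% of all genes), with Ptpn6 at -6.11 ± 0.10, Vav1, a guanine exchange factor of blood cells, at -5.59 ± 0.11, Arhgef7 at least 16.9-fold higher and Lat at least 19.0-fold lower. Arhgef7 was detected on brain arrays alone and Lat on no brain array, so the filter fixed both directions.

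**Figure D5:**
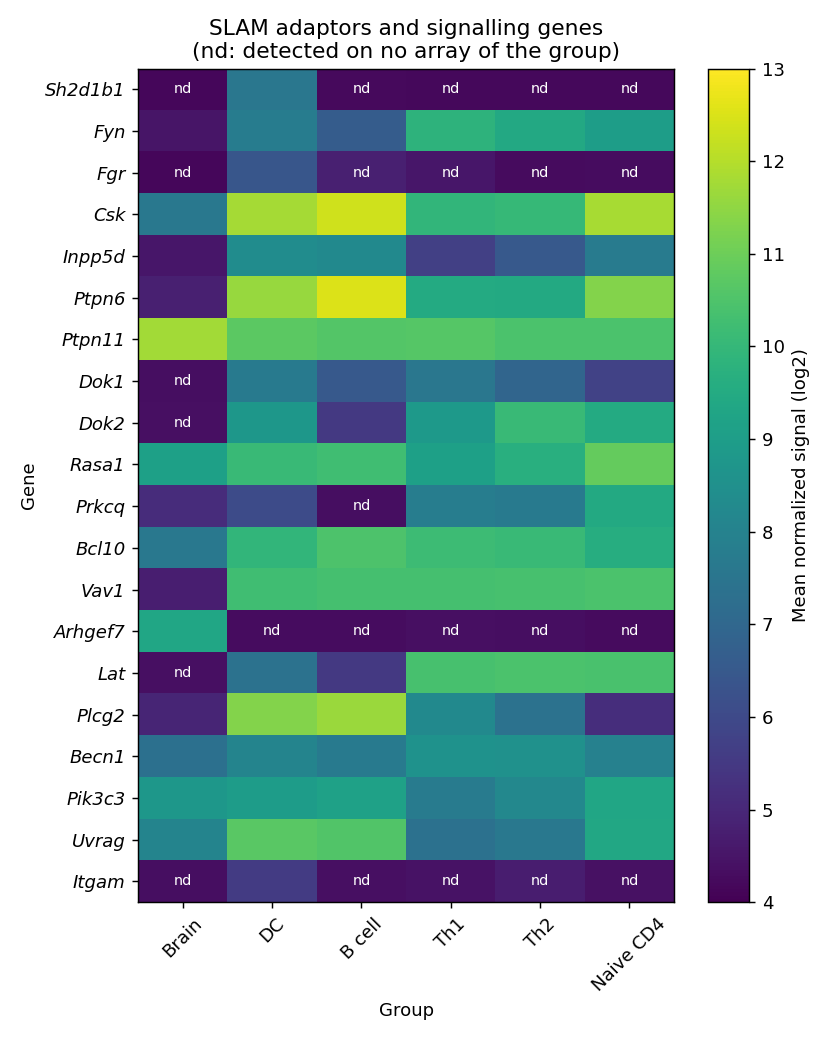
Mean normalized log2 signal (colour scale) of 20 tested SLAM adaptors and signalling genes in 6 groups of 3 arrays; nd marks genes detected on no array of a group. Sh2d1b1 is detected in dendritic cells only, and Plcg2 is brightest in B and dendritic cells.

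Cd2, a relative of the family whose mouse ligand is CD48, was high in all immune groups, with means of 9.30 in dendritic, 10.80 in B, 12.31 in Th1, 12.23 in Th2 and 11.64 in naive cells. It was lower in dendritic cells than in naive cells (-2.34 ± 0.17; adjusted p = 4.99e-09) and was not called between T cell groups. B cells differed from Th1 cells by -1.51 and from Th2 cells by -1.43. In brain it was at least 103-fold lower. Slamf8 has no named probe here.

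Genes of T follicular help, the programme in which SAP and SLAM receptors are best known, were tested for 12 of 14 listed. Of these 5 were higher and 2 lower in Th1 cells, and 6 higher and 4 lower in Th2 cells, each against naive cells, where 28.4% (Th1) and 27.0% (Th2) of all genes were called. Il21, the helper cytokine of germinal centres, was detected on the Th1 and Th2 arrays alone, and Il4 on these and on 2 DC arrays. As the filter needed 3 arrays, both passed it through the Th1 and Th2 arrays. Neither was detected in naive cells, so both had to stand higher in Th1 and Th2 cells. Their part in these counts is fixed by the filter. Il21 was at least 75.4-fold higher in Th1 and at least 45.7-fold higher in Th2 cells. Cd40lg, the signal to B cells, was higher by 3.59 ± 0.13 in Th1 cells, and Tox was at least 17.2-fold lower in Th1 and at least 17.3-fold lower in Th2 cells. Il4 was at least 90.5-fold higher in Th1 and at least 575-fold higher in Th2 cells, and Il6ra was lower in Th2 cells (-3.61 ± 0.18). Between Th1 and Th2 cells 2 were higher (Btla by 1.98 ± 0.17 and Icos by 1.44 ± 0.15) and 2 lower (Il4 at -2.67 ± 0.13 and Maf at least 1.92-fold lower), beside 4.50% of all genes. In B cells 4 were higher and 4 lower than in naive cells (14.2% of all genes), with Cxcr5 up by 4.95 ± 0.25. In dendritic cells 2 were higher and 4 lower (23.0% of all genes), with Bcl6 up by 2.75 ± 0.17. The list's Cd200 had probes that disagreed in brain, at -1.08 and 1.46.

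The genes most like each member were found by Pearson correlation over the 18 arrays, as a description. Groups drive these values, and brain lies at the low end for nearly all. Slamf1 was nearest to Lta (lymphotoxin alpha, r = 0.98), Slc1a5 (0.97) and Farsb (0.97). Slamf7 was nearest to Pclaf (0.99), Aurkb (0.98) and Kif18b (0.98), all known from dividing cells. Slamf9 was nearest to Rnase6 (0.996), H2-Aa (0.992) and Ciita (0.991), of which H2-Aa is an MHC class II chain and Ciita the activator of that gene class. Cd244 was nearest to Stfa1 (0.99), Ugt1a7c (0.98) and Ifitm6 (0.98). Slamf6 was nearest to Sh3kbp1 (0.97), Ltb (0.95) and Rad9a (0.95), and Cd48 to Cdc5l (0.96), Asnsd1 (0.94) and Colgalt1 (0.93). Ly9 was nearest to Nsa2, Pstpip1 and Clec2d (0.99 each) and Cd84 to Nasp, Seh1l and H2-Q6 (0.99 each). Over the 15 immune arrays, a choice made after seeing the data, Slamf9 kept Rnase6 and Ciita, Cd48 kept Cdc5l, Ly9 kept Clec2d and Cd244 kept Stfa1 among its nearest 3. Slamf1, Slamf6, Slamf7 and Cd84 kept none.

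Among the members themselves, the highest correlations over the 18 arrays were Ly9 with Cd84 (r = 0.92), Slamf6 with Ly9 (0.90) and Slamf1 with Cd84 (0.85). Without the brain arrays Ly9 with Cd84 gave -0.19, Slamf6 with Ly9 0.48 and Slamf1 with Cd84 0.89. Slamf9 with Cd48 gave 0.77 over all arrays and 0.81 over the immune arrays. The lowest over the immune arrays was Slamf9 with Cd84, at -0.76. All correlations of Cd84 rest on its brightest probe, whose rise in Th1 and Th2 over naive cells its other probes did not share.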

How the data were processed

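Per the labels' protocols, labelled cRNA made from total RNA was put on mouse Illumina BeadChips. The submitters' processing notes name GenomeStudio. The deposited intensity values are unnormalized probe signals, per the file headers, with no background subtracted, as the values show. A detection p-value is deposited beside each signal. The scaled intensity that the authors deposited differs from these signals by 1 multiplying factor for each array, with a mean of 229 on every array. Slides, scan dates and a genome build are not stated there.

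With limma 3.58.1 in R 4.3.3, normexp background correction took its control mean and spread from the detection p-values. Quantile normalization followed, with an offset of 16, and then log2. Of 45281 probes, 34885 had 1 gene symbol and 18 had several. A probe was kept if 3 or more arrays had a detection p under 0.01, and the brightest stood for its gene. Groups came from sample titles. A model with 6 group means was fitted over all 18 arrays (lmFit and eBayes), with 11 comparisons. The offset understates folds of dim genes.

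The members and gene lists were chosen with earlier results of these data known. Named were all members, the 3 genes most correlated with each (without clone-like names), and from each list up to 4 called genes per comparison with the largest difference and no overlap of groups. Of those, comparisons of B and dendritic cells with Th1 and Th2 cells are given as counts. Similarity over immune arrays was added after seeing the data. Other alternatives covered the background correction, offset, scaling, the authors' scaled signal, filter, probe choice, arrays fitted, replicate block, fold threshold and each array left out.

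The replicate numbers in the titles paired Th1 with Th2 arrays (correlations of deviations from group means 0.592, 0.316 and 0.675). No other pair of immune groups had all 3 over 0.1, and pairs with brain were not examined. On simulated data for 12094 genes, Th1 against Th2 recovered 96 of 200 genes changed 2-fold, 198 changed 3-fold and 200 changed 8-fold, with 4 unchanged genes called. A 2-fold change lies on the fold threshold for a call itself, so the count of 96 cannot be read as sensitivity alone. Python 3.11.15 with pandas and matplotlib served for promoters and plots.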

Additional observations from a re-analysis of the deposited data

How the results depend on the processing

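With the brightest probe standing for each gene, no member turned its direction between called values under any alternative tried. A change of sign between values that were not called was not counted. Other probes of a gene did not enter this check. Those of Cd84 pointed down in Th1 and Th2 against naive cells, where its brightest probe pointed up. The number of members called was 1 in Th1 against Th2 cells and 3 in B against Th2 cells without background correction, with an offset of 50 and with the authors' scaled signal, each of which lowers the differences of dim probes. An offset of 50 left 5 in brain against the immune groups. Without the fold threshold 8 were called in dendritic against naive cells and 5 in Th1 against naive cells. Leaving out 1 array at a time gave 3 to 5 in Th1 against naive cells and 1 to 3 in Th1 against Th2 cells; the cause of these shifts was not tested. The replicate block changed none of the 88 member results, and in the paired fit Th1 against Th2 cells kept 3 calls (Slamf6 adjusted p = 0.0283, Slamf7 0.00479, Cd244 0.00534).

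Over all genes, Th1 against Th2 cells had 544 calls, but 352 without background correction, 314 with an offset of 50 and 345 with the authors' scaled signal, and median scaling gave 5986 in B against Th1 cells (3486 in the main analysis) and 6360 in B against Th2 cells (3388). Median scaling moved the median difference of all genes to -0.73 in B against Th2 cells, and the share of higher genes among those called to 20.7% there (50% in the main analysis), 24.2% in B against Th1 (51.5%), 82.6% in dendritic against B (69.3%), 72.6% in dendritic against naive (57.3%), 59.1% in Th1 against naive (45.9%), 61.6% in Th2 against naive (46.7%) and 64.0% in brain (49.2%).

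The authors' scaled signal gave shares of 64.1% in brain, 35.2% in Th1 against naive, 65.8% in B against Th1 and 63.6% in B against Th2 cells. Testing every probe on its own gave 4283 calls in dendritic against naive cells, 5349 in Th1 and 5081 in Th2 against naive cells, 5403 and 5295 in B against Th1 and Th2 cells, 5423 and 5467 in dendritic against Th1 and Th2 cells and 9829 in brain, where probes, not genes, were counted. Without the fold threshold the comparisons had 1670 (Th1 against Th2) to 10464 calls (brain). The calls of Cd48, and those of Cd244 in Th2 cells, rest on signals close to background.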
